A study of Mus musculus with 78 samples.

Results

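Neurotransmitter receptor genes encode the proteins with which neurons read glutamate, GABA, glycine, acetylcholine and serotonin. They were taken as the protein-coding genes on mouse autosomes whose symbol begins with Gabr, Gria, Grik, Grin, Grid, Grm, Glra, Glrb, Chrn or Htr in the form used for subunits and receptors. The rule found 78 of 20807 autosomal protein-coding genes, and no measured value entered it. Of these, 73 encode receptors and 5 match by symbol only, namely the serine protease genes Htra1, Htra2, Htra3 and Htra4 and the scaffold gene Grid2ip, which are given apart. A further 7 coding matches on chromosome X and 2 non-coding matches were left out.

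The cells were C2C12 mouse myoblasts, a line of C3H origin, differentiated to myotubes in 2% horse serum, synchronized by 1 h in 50% horse serum and collected 12, 16, 20, 24, 28 or 32 h later, with 3 biological replicates at each time. Bio-EZH1 libraries came from a line in which Ezh1 was knocked down (shEzh1) and that carries the ligase BirA and Avi-tagged EZH1α, a methyltransferase subunit of PRC2, which was pulled down with streptavidin after a double crosslink. SUZ12 libraries came from an antibody against this core PRC2 subunit and the chromatin of the same modified line, so both profiles share the knockdown and the tagged EZH1α. H3K27me3, the histone mark that PRC2 writes, was profiled in C2C12 cells for which the labels give no modification. HA-EZH1 samples are labelled as C2C12 with neither antibody nor modified line. Each of the 72 libraries is a list of peaks with a fold enrichment, the ratio of ChIP signal to the background that the peak caller models.

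PRC2 keeps genes of other lineages silent by methylating lysine 27 of histone H3, often over promoters rich in CG dinucleotides. Most receptor genes considered here serve synapses between neurons and have no known role in muscle contraction. The exception is the muscle nicotinic receptor, which opens at the neuromuscular junction when acetylcholine arrives. It is built from the products of Chrna1, Chrnb1 and Chrnd with Chrng before and Chrne after birth.

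The lists held 8539 to 19827 peaks for Bio-EZH1 and 45120 to 70797 for H3K27me3, while HA-EZH1 lists held 2347 to 16366. No list holds expression, so the cell type could be read only from where peaks lay. Common promoter peaks of Bio-EZH1, SUZ12 and H3K27me3 were found at 2, 3 and 3 of 15 skeletal muscle marker genes, at 6, 6 and 6 of 9 neuron marker genes, and at 0, 0 and 0 of 10 housekeeping genes. The shares over all coding genes were 12.4, 14.8 and 22.9%. Those of the muscle markers, 13.3, 20.0 and 20.0%, lay near them, so muscle markers were not set apart from other genes. One of the muscle markers with a peak of each was Ckm, the muscle creatine kinase gene, in 18 of 18 libraries of each profile. HA-EZH1 had a common promoter peak at 3 of the 10 housekeeping genes, 3 of the 9 neuron and 1 of the 15 muscle marker genes. The share over all coding genes was 10.2%.

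A promoter peak is a listed peak within 3 kb of the transcription start site (TSS), the 5′ end of the gene record. It is called common at a time when all 3 replicates have one with a q-value under 0.01 and these overlap. By this measure 30 of 73 receptor genes (41.1%) were bound by Bio-EZH1 at 1 or more times, against 2572 of 20807 coding genes (12.4%). SUZ12 bound 28 receptor genes (38.4%), against 3088 coding genes (14.8%). H3K27me3 covered 34 receptor genes (46.6%), against 4765 coding genes (22.9%). HA-EZH1 bound 5 receptor genes (6.85%), against 2123 coding genes (10.2%). No test of these shares was made, since the family was chosen with earlier results of these data known.

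Persistence over the day differed between the profiles. Bio-EZH1 peaks were common at all 6 times at 13 of 73 receptor genes, beside 7.17% of all coding genes. For SUZ12 peaks it was 9 of 73, beside 4.6% of all coding genes, and for H3K27me3 peaks 18 of 73, beside 9.66%. HA-EZH1 had none, with 0.154% of all coding genes. Common peaks of the 3 profiles largely fell at the same genes: 26 receptor genes (35.6%) had them for all 3, beside 10.7% of all coding genes. Each profile was counted at 1 or more times and anywhere in the window, so the peaks need not share a time or a site. At Grik3, for example, SUZ12 had a peak in 3 of 3 libraries only at 28 h, where Bio-EZH1 had one in 1. A common H3K27me3 peak without a common peak of either protein, called H3K27me3 only below, was found at 6 receptor genes (8.22%), beside 9.19% of all coding genes. These were Gabrp, Gabrr1, Htr2a, Htr3a, Htr5a and Htr5b. Single libraries still had protein peaks there: SUZ12 in 4 at Htr2a and 2 at Gabrr1, and Bio-EZH1 in 1 each at Gabrp and Htr5a. At the other end, 24 receptor genes had no promoter peak in any of the 72 lists, a state shared by 40.4% of all coding genes.

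**Figure D1:**
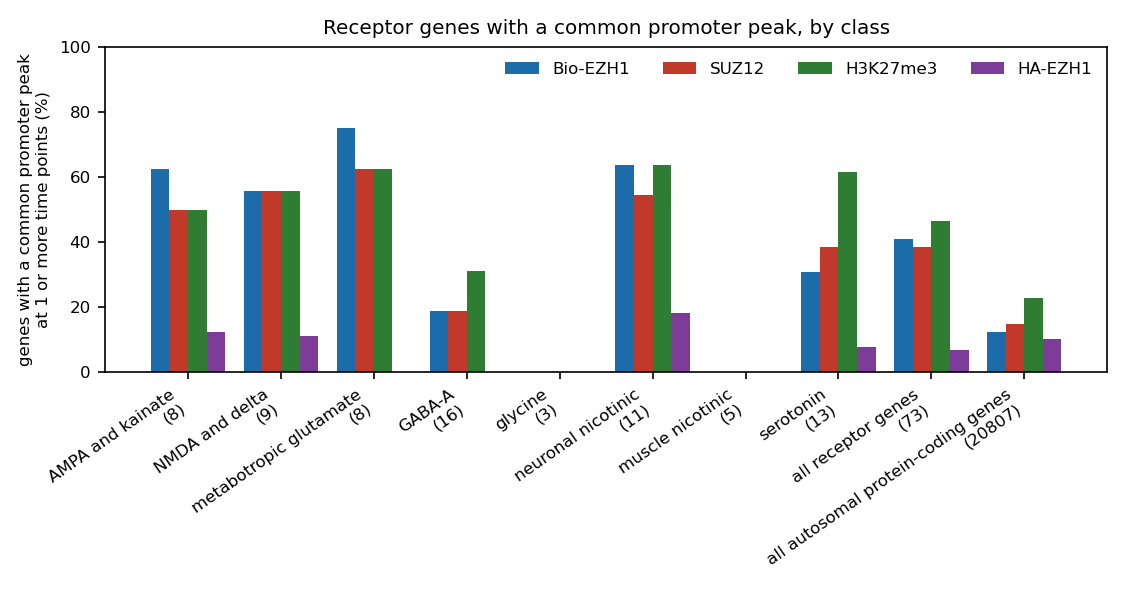
Share of genes (%) with a common promoter peak at 1 or more times for Bio-EZH1, SUZ12, H3K27me3 and HA-EZH1, by receptor class, with all 73 receptor genes and all 20807 coding genes at the right; the number of genes is in parentheses. Metabotropic glutamate receptor genes reach 75.0% for Bio-EZH1, and the glycine and muscle nicotinic classes have no bar because no member was bound.

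The promoters themselves differ widely in sequence, and the following 200 bases upstream of the TSS (GRCm38) are shown for a bound CG-rich gene, a bound CG-poor gene, a CG-rich gene without any peak, and a muscle subunit gene. Capitals mark CG in the first 3, and in Chrna1 the E-box CANNTG, which MyoD and related muscle factors recognise.
Grik4 (chr9:42944494-42944693, minus strand): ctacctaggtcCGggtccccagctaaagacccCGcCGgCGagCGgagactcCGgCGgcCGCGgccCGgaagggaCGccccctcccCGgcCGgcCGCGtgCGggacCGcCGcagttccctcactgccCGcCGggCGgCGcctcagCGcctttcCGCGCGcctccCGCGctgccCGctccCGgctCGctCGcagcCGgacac
Chrna2 (chr14:66134839-66135038, plus strand): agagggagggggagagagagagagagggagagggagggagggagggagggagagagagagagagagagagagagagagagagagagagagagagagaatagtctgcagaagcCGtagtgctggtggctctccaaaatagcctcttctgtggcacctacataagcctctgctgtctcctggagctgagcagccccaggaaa
Gabra5 (chr7:57510060-57510259, minus strand): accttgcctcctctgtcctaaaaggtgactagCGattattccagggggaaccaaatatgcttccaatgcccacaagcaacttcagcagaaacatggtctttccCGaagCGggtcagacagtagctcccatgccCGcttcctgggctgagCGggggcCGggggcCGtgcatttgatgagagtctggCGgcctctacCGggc
Chrna1 (chr2:73580339-73580538, minus strand): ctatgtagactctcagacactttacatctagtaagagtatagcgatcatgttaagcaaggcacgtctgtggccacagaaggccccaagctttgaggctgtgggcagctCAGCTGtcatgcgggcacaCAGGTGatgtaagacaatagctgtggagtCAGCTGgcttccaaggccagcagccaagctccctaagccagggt

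The stretch of Grik4 holds 33 CG, that of Gabra5 9 and that of Chrna2 only 1. Within 500 bases on either side of the TSS, the 26 receptor genes bound by all 3 profiles had a median of 52.0 CG, with 8 at Chrna2 and 131 at Grid1 as the ends of the range. All 2222 coding genes bound by the 3 had a median of 56.0. The 6 receptor genes with H3K27me3 only were CG-poor, with a median of 19.0 and at most 37, beside 22.0 for the 1913 coding genes in that state. The 20 receptor genes outside the muscle class without a peak of the 3 profiles had a median of 32.0, beside 45.0 for the 12027 coding genes without one. These ranges overlap broadly, since Gabra5 and Chrna7 hold 77 CG each and had no promoter peak, while Chrna9 and Chrna4 hold 11 each and were bound by all 3. The peaks of some CG-poor genes had their summits outside the stretch in which CG was counted. Median Bio-EZH1 summits lay at 4355.5 bp from the TSS in Chrna4, 2247.0 bp in Chrna9 and -1603.5 bp in Chrna2. For these genes the count does not describe the sequence under the median Bio-EZH1 summit. The median SUZ12 summit of Chrna2, by contrast, lay within the counted stretch, with single summits from -2443 to 1529 bp.

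**Figure D2:**
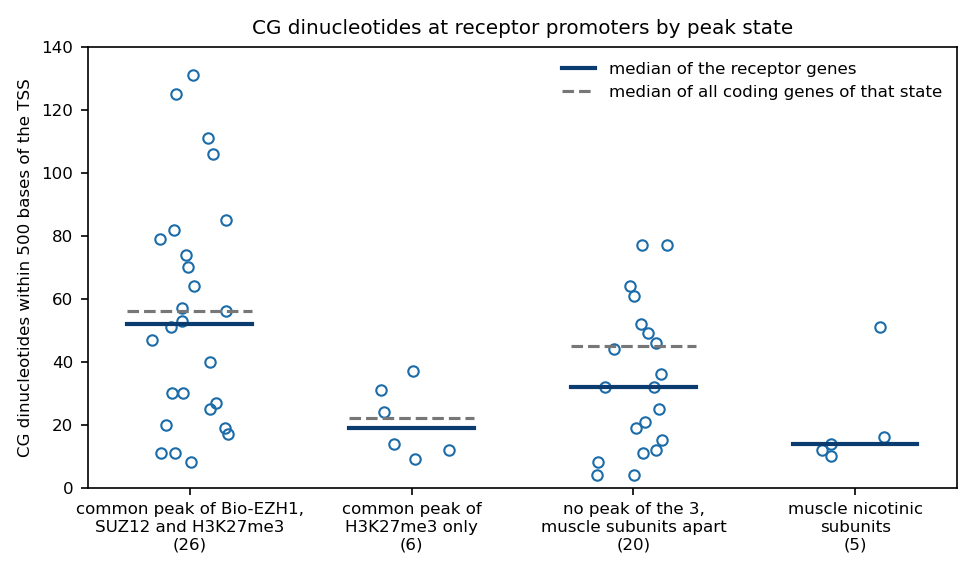
CG dinucleotides within 500 bases of the TSS for each receptor gene (circles) by peak state, with the number of genes in parentheses. Solid lines are medians of the receptor genes, 52.0, 19.0, 32.0 and 14.0 from left to right, and dashed lines are medians of all coding genes in the same state, 56.0, 22.0 and 45.0.

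The muscle nicotinic genes lacked promoter peaks of 3 of the 4 profiles. None of Chrna1, Chrnb1, Chrnd, Chrne and Chrng had a promoter peak of Bio-EZH1, SUZ12 or H3K27me3 in any of the 54 lists, nor a peak of these in the gene body beyond the promoter window. A promoter without a peak of these 3 profiles was also found at 20 other receptor genes, and at 12027 of 20807 coding genes. The only promoter peak of the class was an HA-EZH1 peak at Chrna1, which encodes the subunit that binds acetylcholine, in 1 of 3 libraries at 28 h, with a fold enrichment of 2.61. The nearest listed peak of any library lay 4.1 kb from Chrnb1, 8.9 kb from Chrng, 14.8 kb from Chrne and 15.7 kb from Chrnd. For Chrna1 the nearest peak of the other 3 profiles was 156197 bp away.

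Upstream sequence of the class held E-boxes in most cases. CANNTG, which reads the same on both strands, was present in the 200 bases upstream of 4 of 5 muscle genes, beside 55.1% of all coding genes. CAGCTG, one form of it, was present at 3 of 5, Chrna1, Chrne and Chrng, beside 9.96% of all coding genes. Their CG content was low, with 10 to 16 CG within 500 bases of the TSS for all but Chrnb1, which had 51.

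AMPA and kainate receptors are the fast glutamate-gated channels. Of the 8 genes, 5 were bound by Bio-EZH1, 4 by SUZ12 and 4 by H3K27me3. Grik4, a kainate subunit, had peaks in all 54 libraries of the 3 profiles and the largest Bio-EZH1 enrichment of the family. Its Bio-EZH1 fold enrichment in the 3 libraries was 22.0, 24.2 and 22.4 at 12 h, 22.5, 25.4 and 24.5 at 16 h, and 19.7, 16.0 and 17.3 at 20 h. It was 30.8, 24.2 and 29.6 at 24 h, 19.3, 25.9 and 23.4 at 28 h, and 49.0, 49.3 and 44.1 at 32 h. The 32 h libraries of Grik4 lay above all others, and the 20 h libraries were low, overlapping only those of 28 h. Peak summits of Grik4 sat a median of 252 bp downstream of the TSS for Bio-EZH1 and 262 bp for SUZ12, so both fell on the first bases of the gene.

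Gria2, whose product sets the low calcium permeability of AMPA receptors, was also present in all 54 libraries, with Bio-EZH1 values of 3.81 to 7.75 and a median of 6.0. Gria4 had a peak in 15, 18 and 18 libraries of Bio-EZH1, SUZ12 and H3K27me3. By contrast, Gria1 and Grik1 had no promoter peak in any list, and Grik2 had 1 in a single library of each of the 3 profiles. Grik5 shares its promoter window with Zfp574, whose TSS is 221 bp away, so its 5 Bio-EZH1 peaks cannot be assigned to either gene.

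NMDA receptors are glutamate-gated channels that pass calcium, and the delta subunits are their relatives at cerebellar and other synapses. Here 5 of 9 genes were bound by each of the 3 profiles, and the other 4, among them Grin2b, Grin2d and Grin3a, had no promoter peak in any list. Grid1 and Grin2c were present in all 54 libraries, with median Bio-EZH1 enrichments of 17.4 and 17.1. Grin3b had Bio-EZH1 and H3K27me3 peaks in 18 of 18 libraries each but SUZ12 peaks in 9. Grin1, which encodes the obligatory subunit, had the highest H3K27me3 fold enrichment of the family, 6.31, 6.5 and 6.95 at 20 h. Its SUZ12 peaks, found in 8 libraries, had their summits at -5010 to -3742 bp from the TSS, so that only their edge entered the window.

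Metabotropic glutamate receptors act through G proteins. Of 8 genes, 6 were bound by Bio-EZH1 and 5 each by SUZ12 and H3K27me3, the highest shares of any receptor class for the 2 proteins. Grm6, the receptor of retinal ON bipolar cells, was present in 54 libraries, Grm8 in 53 and Grm2 in 52. Grm3 and Grm5 had no promoter peak. Grm4 showed the largest SUZ12 value of the family, 50.7 at 28 h. Its SUZ12 peaks reached the window by their edges only, in 12 libraries. The summits lay 3058 to 8779 bp downstream of the TSS, with a median of 8580 bp, so they were not all of the same peak. Mean fold enrichment was 46.3 at 28 h, but 2.40 in 2 libraries at 20 h and 2.07 in 1 at 16 h.

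GABA-A receptors are the chloride channels of fast inhibition. Of 16 genes, 3 were bound by Bio-EZH1, 3 by SUZ12 and 5 by H3K27me3. Gabra2 had a peak in 51 of 54 libraries and Gabrd, which encodes an extrasynaptic subunit, in 36. Gabrd lay in a broad H3K27me3 domain with a median length of 94466 bp and a median fold enrichment of 5.15. In contrast, Gabra5 and Gabrg3, both on chromosome 7, had no promoter peak in any list, and the nearest listed peaks were 743.4 and 866.3 kb away. Gabra4 and Gabrb1 start 195 bp apart, and the single H3K27me3 peak of both was the same 404 bp peak in 1 library at 28 h.

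Glycine receptors, the inhibitory channels of spinal cord and brainstem, had no common peak at any of 3 genes. Glra1 had H3K27me3 in 12 libraries, none of them at 12 h. Glrb, which encodes the anchoring subunit, had a peak in 5 of 54, although its neighbour Gria2, with a TSS 110825 bp away, had one in all 54. Glra3 had none.

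Neuronal nicotinic receptors are the acetylcholine-gated channels of ganglia and brain. Of 11 genes, 7 were bound by Bio-EZH1, 6 by SUZ12 and 7 by H3K27me3. Chrna2, Chrna3 and Chrna5 were present in all 54 libraries, and Chrna6, Chrna7 and Chrna10 in none. Chrna5 had Bio-EZH1 values of 11.5 to 27.6 with a median of 21.8, above those of its neighbour Chrna3 in the same cluster on chromosome 9, 2.85 to 10.6. Chrna3 and Chrnb4, whose TSSs are 22217 bp apart, were covered by 1 and the same H3K27me3 peak in 2 libraries and by separate peaks in the others. Chrna4 peaks of Bio-EZH1 and SUZ12 had summits a median of 4356 and 4358 bp downstream of the TSS.

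Serotonin receptors are G protein coupled except Htr3a and Htr3b, which form an ion channel. Of 13 genes, 4 were bound by Bio-EZH1, 5 by SUZ12 and 8 by H3K27me3, and 4 of the 6 receptor genes with H3K27me3 only were of this class. Htr6 was present in 50 of 54 libraries, with Bio-EZH1 values of 8.55 to 18.9, Htr3b in 46 and Htr1d in 42. Htr3a had H3K27me3 in 18 of 18 libraries and no peak of Bio-EZH1 or SUZ12. Htr1a, Htr1f and Htr4 had no promoter peak in any list.

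**Figure D3:**
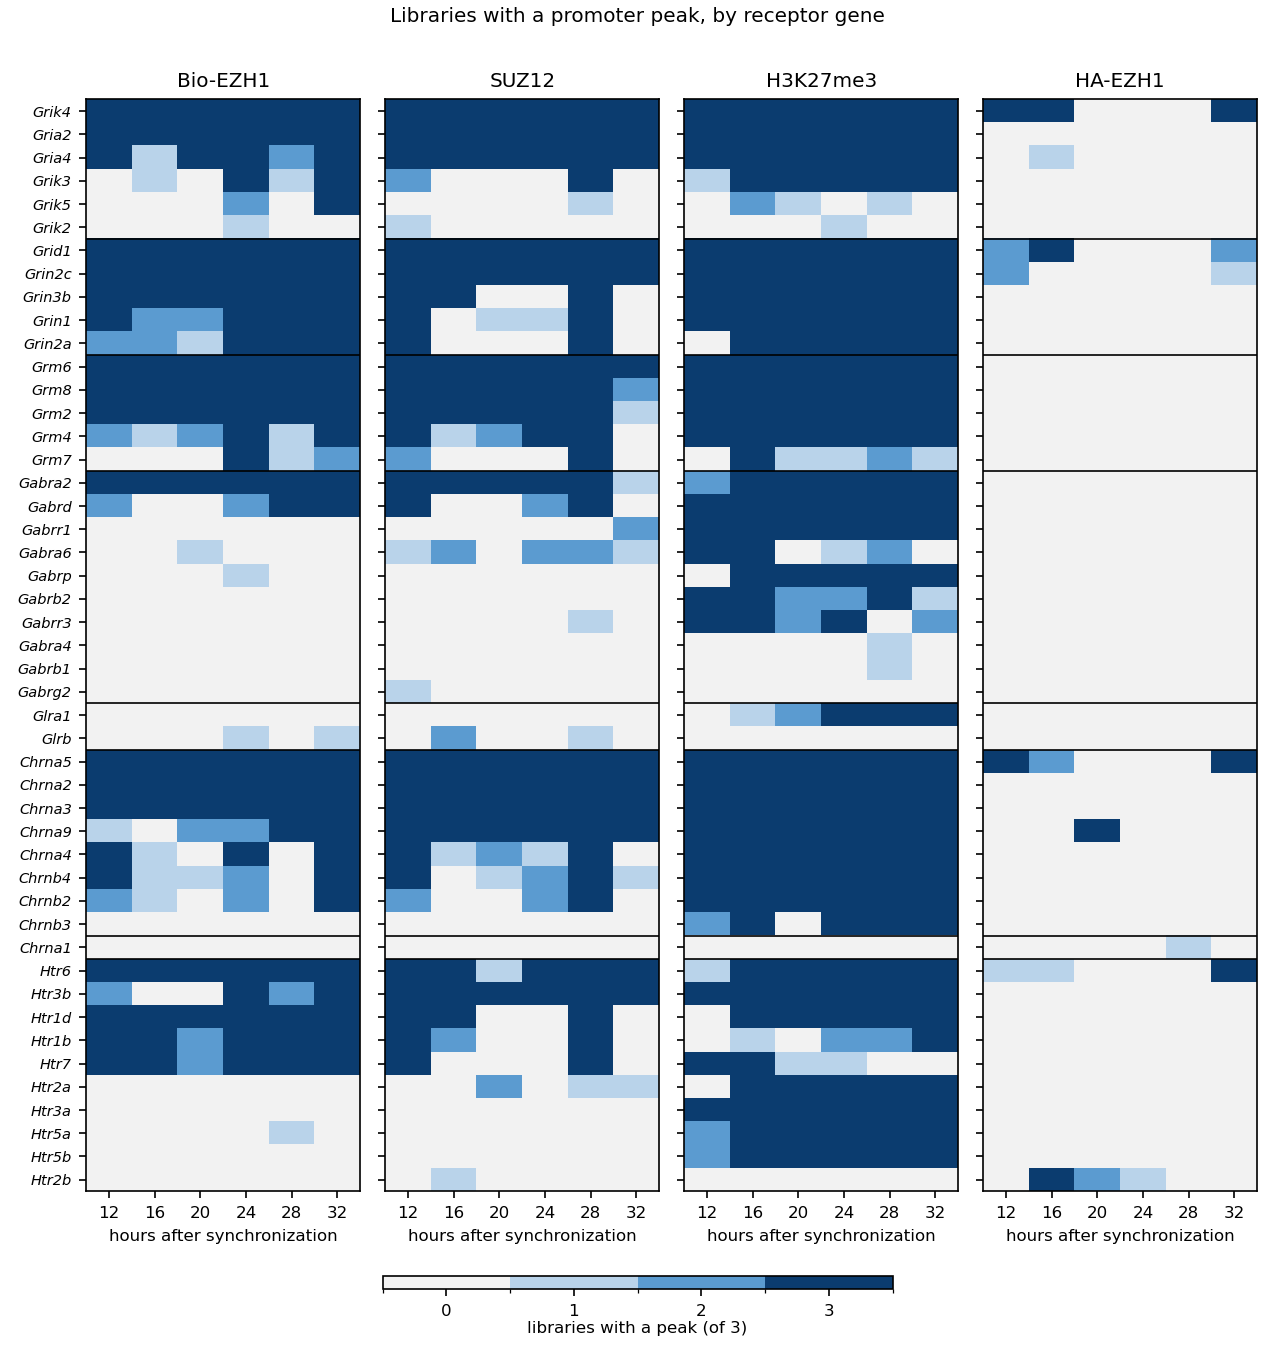
Number of libraries (of 3) with a promoter peak at each time after synchronization, for 47 of the 49 receptor genes with a peak in 1 or more lists, ordered by class (separated by lines) and by the number of libraries. Grik4, Gria2, Grid1, Grin2c, Grm6, Chrna5, Chrna2 and Chrna3 are dark in all columns of Bio-EZH1, SUZ12 and H3K27me3; the other 24 receptor genes have no promoter peak and are not drawn.

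The 24 receptor genes without a promoter peak were not all far from peaks. The nearest listed peak was within 10 kb at 6 of them, Chrng, Gabrr2, Grin2d, Chrna10, Gria1 and Chrnb1, and beyond 100 kb at 9. Of the 24, 5 carried H3K27me3 in the gene body in 15 or more libraries, among them Grin3a, Grin2b, Grin2d and Htr4. A peak of the 3 profiles was absent from the gene body at 13.

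The share of receptor genes with a promoter peak moved from time to time, together with that of all genes. A Bio-EZH1 peak was found at a mean of 24.0 ± 2.0 receptor genes after 12 h, 19.7 ± 2.5 after 16 h and 20.3 ± 1.5 after 20 h (SD, n = 3 at each time). The means were 30.3 ± 0.58 genes in the 24 h libraries, 23.3 ± 1.5 in those of 28 h and 30.3 ± 0.58 in those of 32 h. The Bio-EZH1 libraries of 24 and 32 h thus held the most receptor genes. SUZ12 was found at 30 ± 1.0 receptor genes after 12 h, 21 ± 1.7 after 16 h and 19.0 ± 0.0 after 20 h. Its means were 21.3 ± 1.2 genes in the 24 h libraries, 32.0 ± 1.0 in those of 28 h and 16.0 ± 1.0 in those of 32 h. The 28 h and 32 h libraries of SUZ12 thus marked the top and the bottom, next to each other in time, and did not overlap. All coding genes gave 17.1% with a SUZ12 peak at 28 h and 8.68% at 32 h.

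H3K27me3 peaks were found at 30.7 ± 0.58 receptor genes at 12 h and at 40.3 ± 0.58 at 16 h, with 36.0 to 39.0 on average at the later times. The 12 h libraries were the lowest for receptor genes and for all coding genes, 20.2% of which had a peak at 12 h, although their lists were the longest. HA-EZH1 peaks were found at 3.67 ± 1.5 receptor genes after 12 h, 4.67 ± 1.5 after 16 h and 1.67 ± 0.58 after 20 h. A single library each of 24 and 28 h had one, at Htr2b and Chrna1 (mean 0.333 ± 0.58 genes at both times), and those of 32 h had them at 4.0 ± 1.0 genes. Since the lists carry neither read depth nor a spike-in factor, a change in the number of peaks and a difference between libraries in depth or efficiency cannot be told apart.

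**Figure D4:**
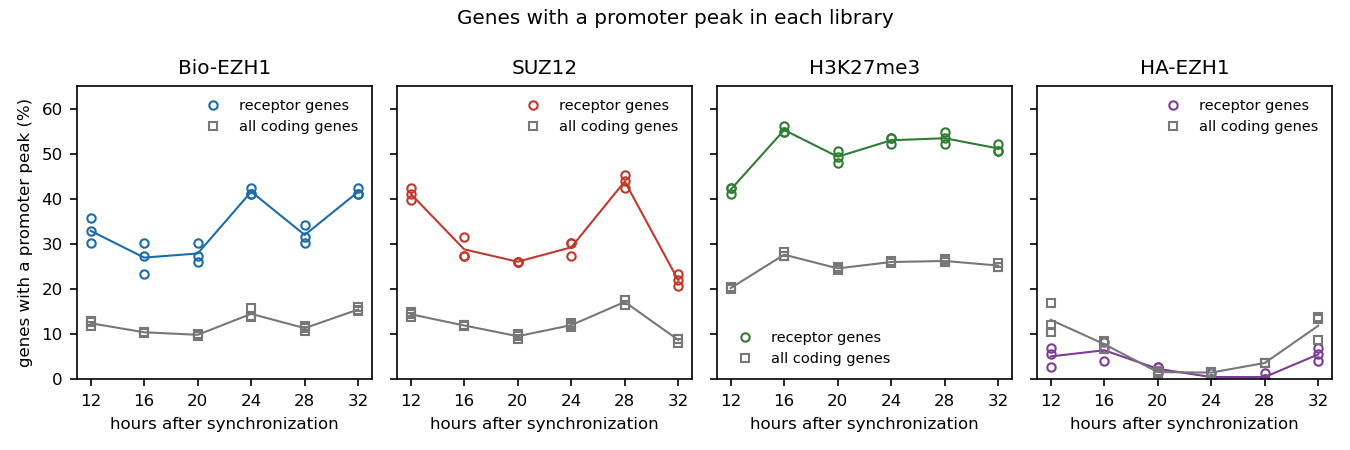
Genes with a promoter peak (%) in each library by hours after synchronization, for receptor genes (circles, coloured) and all coding genes (squares, grey), with lines through the means of 3 libraries. Receptor genes lie above all coding genes in every Bio-EZH1, SUZ12 and H3K27me3 library, and SUZ12 is highest at 28 h and lowest at 32 h.

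Presence of a promoter peak was tested over the 6 times for genes with a peak in 3 to 15 of the 18 libraries of a profile, by an exact test with Benjamini-Hochberg adjustment over all genes tested. For SUZ12 the exact test called 15 of 21 members, 11 of them receptor genes, beside 1038 of 2262 genes (45.9%). All 15 had a peak in 3 of 3 libraries at 28 h and in 0 of 3 at 32 h, a pattern that 949 of the 1038 called genes (91.4%) showed. Htr1d and Grin3b were present in 3 of 3 libraries at 12, 16 and 28 h and in none at 20, 24 and 32 h (adjusted p = 0.0052 by the exact test). Grin2a and Htr7, together with Grid2ip, were present in all libraries at 12 and 28 h and in no other (adjusted p = 0.0052 each by the exact test).

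The SUZ12 peaks that came and went differed in size. Grin3b had fold enrichments of 3.14, 3.92 and 3.92 at 12 h, 1.66, 1.62 and 1.75 at 16 h, and 6.09, 7.83 and 8.28 at 28 h. Grin2a had fold enrichments of 2.29, 1.82 and 2.11 at 12 h and of 3.94, 3.76 and 3.93 at 28 h. Among the other receptor genes called for SUZ12 were Gabrd and Htr1b (adjusted p = 0.021), Grik3 and Grm7 (adjusted p = 0.024), and Grin1 and Chrnb2 (adjusted p = 0.049), all by the exact test. The count was 7 without the 28 h libraries. Without any 1 of the replicates it was 0, where 12 libraries allow no exact p under 0.0216.

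For H3K27me3 the exact test called 4 of 13 members, beside 1183 of 2851 genes (41.5%). Htr1d, Gabrp, Htr2a and Grin2a were each absent from the 3 libraries at 12 h and present in all 15 later ones (adjusted p = 0.019 by the exact test), as were 839 of the 1183 called genes (70.9%). Fold enrichments of Htr2a ranged from 2.65 to 3.43 over the 15 libraries. These calls rest on the 12 h libraries alone, without which the 4 genes do not vary. Without any 1 replicate the count was 0.

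For Bio-EZH1 none of 15 members was called, beside 0 of 1513 genes (0.0%), while 6 members had an unadjusted exact p under 0.05. The lowest was 0.0041, reached by Chrna4 among others. Chrna4 had peaks in all libraries at 12, 24 and 32 h, in 1 at 16 h and in none at 20 and 28 h.

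HA-EZH1 peaks at receptor genes were few. The exact test called 5 of 8 members, Htra2 among them, beside 1925 of 3260 genes (59.0%). The share of members lay near that of all genes, so a change with time did not set them apart. Grik4 was present in 3 of 3 libraries at 12, 16 and 32 h and in none between (adjusted p = 0.0028 by the exact test). Its HA-EZH1 fold enrichment was 4.06, 4.14 and 4.12 at 12 h, 3.68, 2.26 and 3.13 at 16 h, and 4.65, 4.55 and 5.30 at 32 h. The summits of the HA-EZH1 peaks at Grik4 lay a median of 290 bp downstream of the TSS, close to those of Bio-EZH1 and SUZ12.

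Chrna5 was present in 3, 2 and 3 HA-EZH1 libraries at 12, 16 and 32 h (adjusted p = 0.014 by the exact test), and Grid1 in 2, 3 and 2 (adjusted p = 0.044 by the exact test). Chrna9 was the called member with another course, having HA-EZH1 peaks in the 3 libraries at 20 h only, with fold enrichments of 3.30, 2.97 and 2.94 (adjusted p = 0.019 by the exact test). Htr6 had a common HA-EZH1 peak at 32 h and was not called (adjusted p = 0.10 by the exact test). Htr2b, also not called, had HA-EZH1 peaks in 3 libraries at 16 h, 2 at 20 h and 1 at 24 h (adjusted p = 0.09 by the exact test). Of the 5 called members 4 had no HA-EZH1 peak at 20, 24 and 28 h, as did 1443 of the 1925 called genes (75.0%). Without any 1 replicate no member was called.

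The size of the peaks was compared over time for genes with a promoter peak in all 18 libraries of a profile, with limma on log2 fold enrichment centred on the median of each library. Those medians moved strongly: over the 1234 SUZ12 genes the median fold enrichment was 9.51 after 12 h, 5.17 after 16 h and 3.62 after 20 h, and it was 4.61 in the 24 h libraries, 15 in those of 28 h and 3.29 in those of 32 h. For the 2825 H3K27me3 genes it was 2.28 at 12 h and 3.55 to 3.99 later, and for the 1586 Bio-EZH1 genes it ran from 6.68 at 20 h to 10.8 at 32 h. Changes are given relative to these medians. Nearly all genes tested changed, so a call sets no member apart: limma called 12 of 15 members for Bio-EZH1, beside 75.5% of genes, 12 of 12 for SUZ12, beside 90.9%, and 22 of 23 for H3K27me3, beside 94.6%. No member had HA-EZH1 peaks in all 18 libraries, and the 34 genes that did were all called (100%).

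SUZ12 values of receptor genes took several courses. In Grik4, Chrna5, Grin2c and Grid1 the fold enrichment swung more widely than the median of all genes. Grin2c had SUZ12 values of 15.7, 17.8 and 14.7 at 12 h, 5.24, 5.27 and 5.67 at 16 h, and 2.64, 1.69 and 1.59 at 20 h. They were 3.57, 4.04 and 3.98 at 24 h, 23.2, 25.4 and 27.4 at 28 h, and 1.99, 1.93 and 2.08 at 32 h. The 28 h libraries of Grin2c lay above all others and those of 20 and 32 h below all others. After centring, its 28 h and 20 h means still differed by 1.67 on the log2 scale, or 3.19-fold (adjusted p = 1.2e-08, limma). Grik4 had a SUZ12 range of 2.61-fold after centring (adjusted p = 1.5e-07, limma) and Grid1 one of 2.32-fold (adjusted p = 1.9e-08, limma), both highest at 28 h and lowest at 20 h. Gria2, Chrna3 and Grm6 also had their highest uncentred SUZ12 means at 28 h, 7.05, 7.30 and 7.40, but these lay below the median of all genes tested at that time.

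Chrna2 held level where these swung, though its values need not come from a single site. The summit of its strongest SUZ12 peak ran from -2443 to 1529 bp from the TSS, and that of Grin2c from 245 to 527 bp. The SUZ12 values of Chrna2 were 6.39, 7.5 and 6.34 at 12 h, 6.53, 5.55 and 6.10 at 16 h, and 8.28, 6.11 and 7.99 at 20 h. They were 6.82, 6.86 and 7.49 at 24 h, 7.01, 5.32 and 7.72 at 28 h, and 7.12, 8.06 and 8.75 at 32 h. The Chrna2 values overlapped at every pair of times except 16 h with 24 h and with 32 h, and without centring limma did not call it (adjusted p = 0.24). Relative to the library medians it was called, with a range of 5.48-fold, highest at 32 h and lowest at 28 h (adjusted p = 3.3e-09, limma). Gria4 and Htr3b were also called after centring only, with adjusted p of 0.68 and 0.18 without it by limma. Chrna9 was called both ways, with SUZ12 values of 2.47 to 5.31, highest at 20 h after centring (range 5.17-fold, adjusted p = 8.4e-09, limma).

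**Figure D5:**
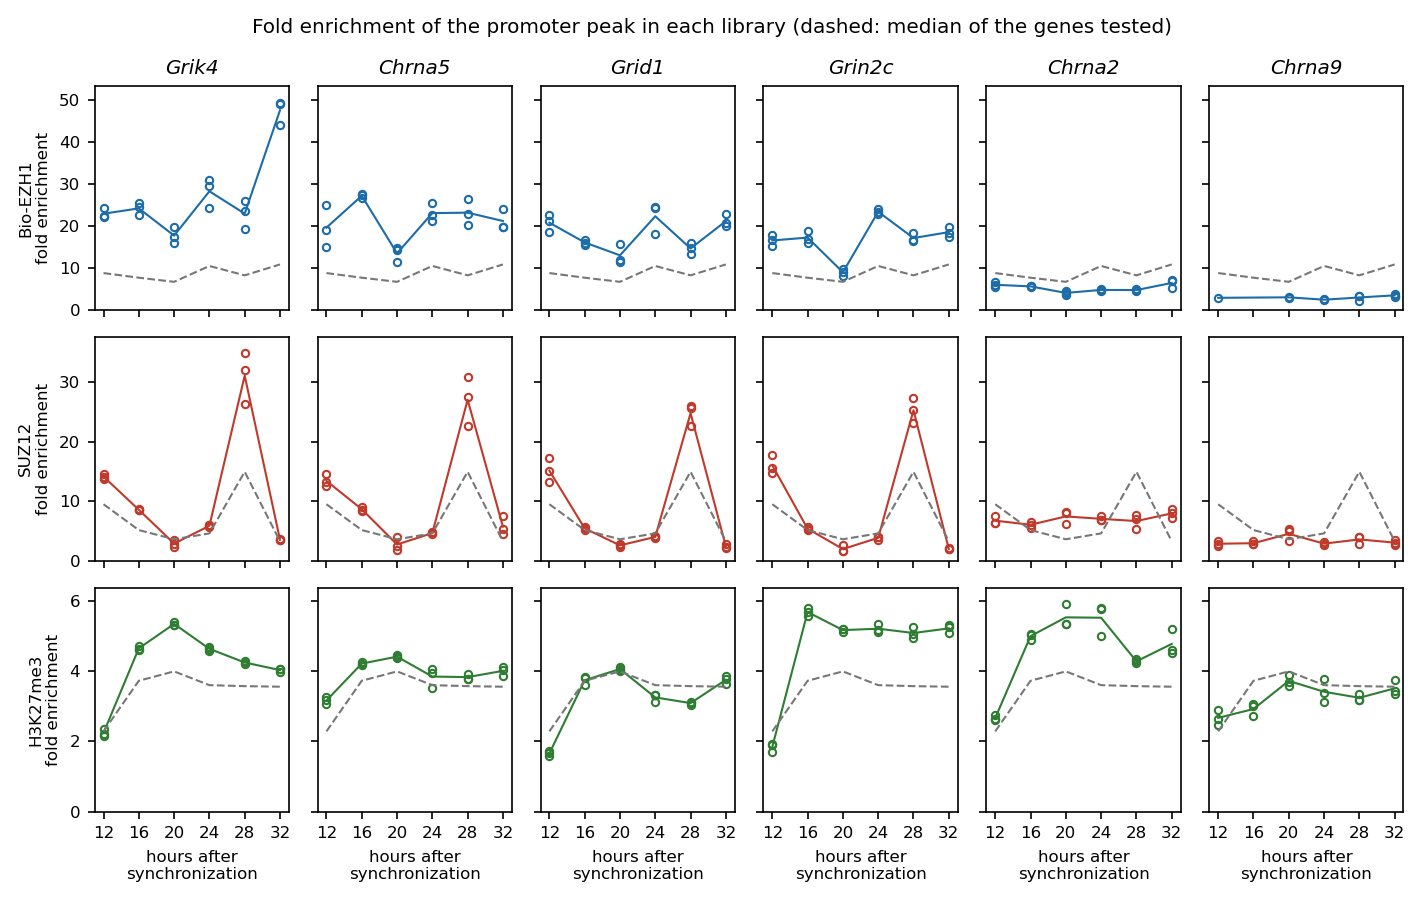
Fold enrichment of the promoter peak by hours after synchronization for 6 receptor genes in Bio-EZH1, SUZ12 and H3K27me3, with a circle per library, a solid line through the means and a dashed line for the median of the genes tested. SUZ12 at Grik4, Chrna5, Grid1 and Grin2c is highest at 28 h, whereas Chrna2 stays between 5.32 and 8.75 and Chrna9 between 2.47 and 5.31.

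The centred H3K27me3 mean was lowest at 12 h in 15 of the 23 members tested, beside 1148 of all 2825 genes tested (40.6%), and these shares were not compared by a test. Grin2c had H3K27me3 fold enrichments of 1.7, 1.93 and 1.90 at 12 h, 5.57, 5.78 and 5.68 at 16 h, and 4.93 to 5.35 in the 12 libraries from 20 to 32 h. The 12 h libraries of Grin2c did not overlap with any other, and after centring its 12 h mean was 1.89-fold below that at 16 h (adjusted p = 8.2e-12, limma). Gabrd (range 1.62-fold, adjusted p = 9.1e-12), Grm4 (1.79-fold, adjusted p = 3.0e-11) and Chrna4 (1.62-fold, adjusted p = 3.7e-10) were likewise lowest at 12 h and highest at 20 h by limma. Chrna5, Chrna9, Htr3a, Htr3b and Gabrr1 had their highest centred mean at 12 h instead, while their uncentred means were lowest at 12 h. The direction at 12 h therefore depends on the centring for these 5 genes. Without the 12 h libraries Chrna5, Grm2 and Grm6 were no longer called (adjusted p = 0.26, 0.27 and 0.35, limma).

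Bio-EZH1 enrichment also changed over time relative to the library medians. Grin2c (range 1.68-fold, adjusted p = 5.5e-05), Htr1d (1.86-fold, adjusted p = 0.00011) and Grin3b (1.75-fold, adjusted p = 0.00026) had the lowest adjusted p by limma, followed by Chrna5 (1.82-fold, adjusted p = 0.00028) and Grik4 (1.68-fold, adjusted p = 0.00028). Grik4 was highest at 32 h, where Chrna5 was lowest relative to the median. Htr1d had Bio-EZH1 values of 8.34, 8.10 and 8.24 at 12 h and of 3.71, 4.42 and 3.53 at 16 h, so that the 2 times did not overlap. Grm6, Grid1 and Htra1 were not called (adjusted p = 0.21, 0.15 and 0.20, limma), and Gria2 was called after centring only (adjusted p = 0.069 without it, limma).

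Among the 5 genes that share only the symbol pattern, Htra1 was bound by Bio-EZH1 at all 6 times and by SUZ12 and H3K27me3 at 3 and 5. Grid2ip was bound at 3, 2 and 5 times. Htra3 and Htra4 had a common SUZ12 peak at 28 h alone (adjusted p = 0.021 each by the exact test). Htra2, a gene of the mitochondrial intermembrane space, had HA-EZH1 peaks only, in 2 libraries at 12 h and 3 at 32 h (adjusted p = 0.022 by the exact test). Its window also holds the TSS of Aup1, 752 bp away.

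Genes outside the family that make, carry or receive the same transmitters were counted in the same way. Of 18 genes for transmitter synthesis and transport, 11 were bound by Bio-EZH1, 12 by SUZ12 and 12 by H3K27me3, with Gad2, Slc6a4, Slc6a5 and Slc32a1 in all 54 libraries. Of 18 synaptic scaffold genes the counts were 7, 7 and 8, with Dlg2, Shank1, Shank3 and Homer2 in all 54. Of 7 muscarinic and GABA-B receptor genes, which are G protein coupled, the counts were 4, 3 and 4, led by Chrm2 with 54 libraries. Of 10 genes of the neuromuscular junction, 3, 4 and 2 were bound. Ache, which encodes the enzyme that clears acetylcholine, was present in all 54 libraries, while Musk and Rapsn, which cluster the muscle receptor, had HA-EZH1 peaks only, common at 1 time each.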

How the data were processed

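ChIP-seq peak lists of 72 libraries, 4 profiles at 6 times with 3 biological replicates, were analysed, and 6 HA inputs without a list were left out. Per the paper's methods, the authors trimmed reads, aligned them with BWA 0.7.17 to mm10 and BDGP6, kept mouse reads, removed duplicates with Picard, filtered with SAMtools 1.7 and called peaks per library with MACS2 2.2.4. The deposited fold enrichment is a ratio of signal to modelled background, and the deposited q-value is given as −log10. Narrow peaks reach a q-value of 0.05 and broad H3K27me3 peaks 0.1; any later filter is not given in the sources used here. Read depth and spike-in factors are not part of the lists, so no counting interval was made, fold enrichment is not calibrated between libraries, and p-values measure only the spread between these samples. The SUZ12 lists carry names that could stand for streptavidin, and the labels were followed.

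TSSs came from GENCODE M21 on GRCm38, and sequences from the RefSeq copy of GRCm38. For each gene the strongest peak within 3 kb was used. Presence over time was tested by an exact test of the number of libraries per time (Python 3.11.15), and log2 fold enrichment with limma 3.58.1 in R 4.3.3, both with Benjamini-Hochberg adjustment at 0.05 over all genes tested, after tests on simulated data. No pseudocount was used. Genes named are all muscle nicotinic genes, the 3 members of each other class with most libraries and one with fewest, members with a common HA-EZH1 peak, the 5 called members with the lowest adjusted p per test and the symbol matches; others were named after their values were seen, and a few members are counted but not reported here by name. Members and lists were chosen with earlier results of these data known. Alternatives were the q-value, window, TSS definition, overlap, centring, library filter, replicate block, single replicates left out and, added after seeing the data, the 28 h SUZ12 or 12 h H3K27me3 libraries left out.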

Additional observations from a re-analysis of the deposited data

How the results depend on the processing

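Counts of bound members stayed within 1.5 times under every alternative run. Without centring the direction of some changes was reversed. The 12 h H3K27me3 means of Chrna5, Chrna9, Htr3a, Htr3b and Gabrr1, among others, were then the lowest instead of the highest. Presence over time rested on few libraries per time. With a replicate block the members called numbered 7 for SUZ12, 0 for H3K27me3 and 2 for HA-EZH1. Without 1 replicate 0 members were called in any profile, and the smallest exact p that 12 libraries allow is 0.0216, against 0.000411 with 18. Left out, the 28 h libraries gave 7 SUZ12 calls and the 12 h libraries 0 H3K27me3 calls, since the 4 genes called do not vary without them. For H3K27me3 a q-value under 0.01 gave 8 calls, a window of 1 kb 9 and the TSS of any transcript 8, and the last gave 8 calls for HA-EZH1. H3K27me3 enrichment calls dropped to 14 in the 1 kb window, where fewer genes were tested. Except for these 14, the count of enrichment calls stayed within 1.5 times, the replicate block included, which changed the call of Gabra2 in Bio-EZH1 only (adjusted p = 0.053, limma). Same-numbered replicates did not deviate together in Bio-EZH1, SUZ12 and H3K27me3 (mean correlation of 0.000, -0.021 and -0.003). In HA-EZH1 the mean was 0.083 over only 34 genes, with single pairs from -0.400 to 0.631 and 22 of 45 over 0.1. The numbers were not taken as pairs in any profile. With 1 replicate left out enrichment calls numbered 11 for Bio-EZH1, 10 to 12 for SUZ12 and 20 to 21 for H3K27me3. Lost, among others, were Chrna2 (without replicate 1) and Gabra2 (2 or 3) in Bio-EZH1, Gria2 (2) and Chrna3 (3) in SUZ12, and Gria4 (1 or 3), Htr3a (1 or 2) and Grin3b (2) in H3K27me3. Over all genes the replicate block gave 349, 0 and 1093 presence calls in SUZ12, H3K27me3 and HA-EZH1, where the test without it gave 1038, 1183 and 1925, and leaving out any 1 replicate gave 0. Bio-EZH1 had 0 presence calls over all genes except with the 1 kb window, which gave 21, none of them a member.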
